A study of Mus musculus with 2 samples.

Results

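The family of miR-130 and miR-301 comprises the mouse microRNA (miRNA) genes Mir130a, Mir130b, Mir301 and Mir301b. They were taken as the 4 rows with these GENCODE M21 symbols among the 2202 miRNA genes of the deposited tables. The tables describe small RNA from C2C12, a myoblast line made from injured thigh muscle of C3H mice and obtained from ATCC. The labels name 2 biological replicates of this 1 line, with no treatment, genotype change, age or culture stage, so no conditions were compared. Values describe the family in this line and the difference between its replicate libraries. The replicates have separate biosample records and share 1 donor record, the cell line. Differences between them may still be technical.

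MiRNAs are short RNAs cut from a hairpin precursor. They guide Argonaute proteins to messenger RNAs, mostly through pairing of the seed, bases 2 to 8 from the 5′ end, and the messenger is then repressed. MiRNAs with the same seed can bind the same sites, so their levels are often considered together. MiR-130a is known for roles in endothelial cells and, with miR-130b, for repressing the adipocyte regulator PPARγ. MiR-301a is known from human tumour cells, where it is often raised.

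All 4 hairpins and 7 mature miRNAs of the family were found in the RefSeq sequences (GRCm38.p6), and the 4 hairpins lie at the positions of GENCODE M21 on mm10. The mature miR-301b-3p was not among these 7 and was not used here. The mature 3p sequences are shown with the seed in capitals because the seed defines the family and the bases after it set the miR-130 and miR-301 forms apart.
mmu-miR-130a-3p: cAGUGCAAuguuaaaagggcau
mmu-miR-130b-3p: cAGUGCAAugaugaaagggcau
mmu-miR-301a-3p: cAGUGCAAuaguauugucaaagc
The miR-130a and miR-130b forms were identical at 20 of 22 bases. From base 1 at the 5′ end, with miR-130a-3p first, the substitutions were U11A and A13G. MiR-301a-3p matched miR-130a-3p at 12 of 22 bases and miR-130b-3p at 11 of 22, with the first difference at base 10 in both comparisons. The hairpin of Mir301b is given with the same 7 bases in capitals, which occur in it once.
Mir301b hairpin: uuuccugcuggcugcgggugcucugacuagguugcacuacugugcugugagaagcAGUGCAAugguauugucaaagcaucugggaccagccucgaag
The hairpins of Mir301 and Mir301b share a stretch of 16 bases, guauugucaaagcauc, which begins after the seed. It was the longest stretch shared by any pair of the 4 hairpins.

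The 5p arms, which come from the other side of the hairpin, do not carry the family seed. They are shown because their own seeds, in capitals, group the genes differently.
mmu-miR-130a-5p: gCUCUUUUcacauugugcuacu
mmu-miR-130b-5p: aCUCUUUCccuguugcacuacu
mmu-miR-301a-5p: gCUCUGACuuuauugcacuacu
mmu-miR-301b-5p: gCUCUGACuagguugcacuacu
The miR-301a and miR-301b 5p arms have the same seed and differ by U10A, U11G and A12G, with miR-301a-5p first. The miR-130a and miR-130b 5p seeds are not the same. The deposited tables give 1 count for a whole hairpin, so each level below is the sum of both arms.

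The genes lie at 3 loci. Mir130b (chromosome 16, 17124061 to 17124142, minus strand) and Mir301b (chromosome 16, 17124400 to 17124496, minus strand) form a cluster with 257 bases between the hairpins. Both lie in intron 1 of 3 of the 8 annotated transcripts of the protein-coding gene 2610318N02Rik, on its own strand. Mir301b lies 671 bases and Mir130b 1025 bases from the annotated start of that gene, so Mir301b comes first in the direction of transcription. Mir301, the gene of miR-301a (chromosome 11, 87113004 to 87113089, plus strand), lies in intron 1 of Ska2, 3770 bases from its start. This holds for 2 of the 3 annotated Ska2 transcripts. Ska2 encodes a spindle and kinetochore protein needed in mitosis. Mir130a lies outside annotated host genes on chromosome 2, from 84741115 to 84741178 on the minus strand. Its nearest annotated neighbour was Gm19426, 990 bases upstream on the same strand. Host transcripts were not measured in these small RNA libraries.

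The libraries held 15025315 reads counted on the strand of miRNA genes in replicate 2 and 27661907 in replicate 1. Mir21a alone took 53.5% of them in replicate 2 and 23.1% in replicate 1, which lowers the share left for every other gene in replicate 2. The skeletal muscle miRNA Mir206 was present at 1028 CPM in replicate 2 and 2559 CPM in replicate 1, where CPM stands for counts per 1000000 gene-strand reads. Of 6 muscle marker genes, 2 (Mir206 and Mir133b) reached 1 CPM in both libraries. Mir1a-1, Mir133a-1 and Mir133a-2 had 0 reads, and Mir1a-2 had 0 in replicate 2 and 3 in replicate 1. These genes and Mir133b have near-identical copies (at least 20 bases shared with another miRNA gene), so their reads may not all have been counted. The level of blood markers (Mir142, Mir223 and Mir451a) summed to 124 CPM in replicate 2 and 216 CPM in replicate 1. Nearly all of this sum was Mir142, at 122 and 215 CPM in these libraries. In the same order, Mir223 (0.799 and 0.434 CPM) and Mir451a (0.666 and 0.831 CPM) stayed below 1 CPM. The endothelial marker Mir126a stood at 134 CPM in replicate 2, against 213 CPM in replicate 1. The part of these blood and endothelial markers in the family's levels was not tested.

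All 4 family genes reached 1 CPM in each library and so counted as detected, as did 320 of all 2202 genes (14.5%). Together they took 0.764% of the reads in replicate 2 (114738 reads, exact Clopper-Pearson 95% interval 0.759 to 0.768) and 1.58% in replicate 1 (436342 reads, 1.57 to 1.58), a mean of 1.17% ± 0.575 (SD, n = 2). With the reads of Mir21a left out of the totals, the family's share was 1.64% in replicate 2 and 2.05% in replicate 1. With multi-mapping reads added to the totals, its mean share was 0.752%. The intervals hold the counting error of reads alone. PCR copies of a molecule were not marked and were counted as separate reads, which the intervals do not allow for.

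Mir130a was the highest member by a wide margin. Its level was 6660 CPM in replicate 2 (100062 reads) and 13933 CPM in replicate 1 (385427 reads), a mean of 10296 ± 5143 CPM (SD, n = 2). It ranked 19th of 2202 genes in replicate 2 and 18th in replicate 1. It held 87.2% of the family's reads in replicate 2 (exact interval 87.0 to 87.4) and 88.3% in replicate 1 (88.2 to 88.4). Most of the family's reads thus came from the locus without an annotated host gene in both libraries.

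Mir130b, the more abundant gene of the cluster, had 673 CPM in replicate 2 (10116 reads) and 1499 CPM in replicate 1 (41470 reads), a mean of 1086 ± 584 CPM (SD, n = 2). It ranked 75th in replicate 2 and 65th in replicate 1. Its share of the family was 8.82% in replicate 2 and 9.50% in replicate 1.

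Mir301, in the Ska2 intron, had 288 CPM in replicate 2 (4328 reads) and 332 CPM in replicate 1 (9189 reads), a mean of 310 ± 31.2 CPM (SD, n = 2). Its rank was 91st in replicate 2 and 102nd in replicate 1. It made up 3.77% of the family's reads in replicate 2 (exact interval 3.66 to 3.88) and 2.11% in replicate 1 (2.06 to 2.15), so its share was larger in replicate 2 while its CPM was smaller there.

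Mir301b was the lowest member, with 15.4 CPM in replicate 2 (232 reads) and 9.25 CPM in replicate 1 (256 reads), a mean of 12.3 ± 4.37 CPM (SD, n = 2). It ranked 183rd in replicate 2 and 220th in replicate 1. Its share of the family was 0.202% in replicate 2 (exact interval 0.177 to 0.230) and 0.0587% in replicate 1 (0.0517 to 0.0663). It was the only member with a higher CPM in replicate 2 than in replicate 1.

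**Figure D1:**
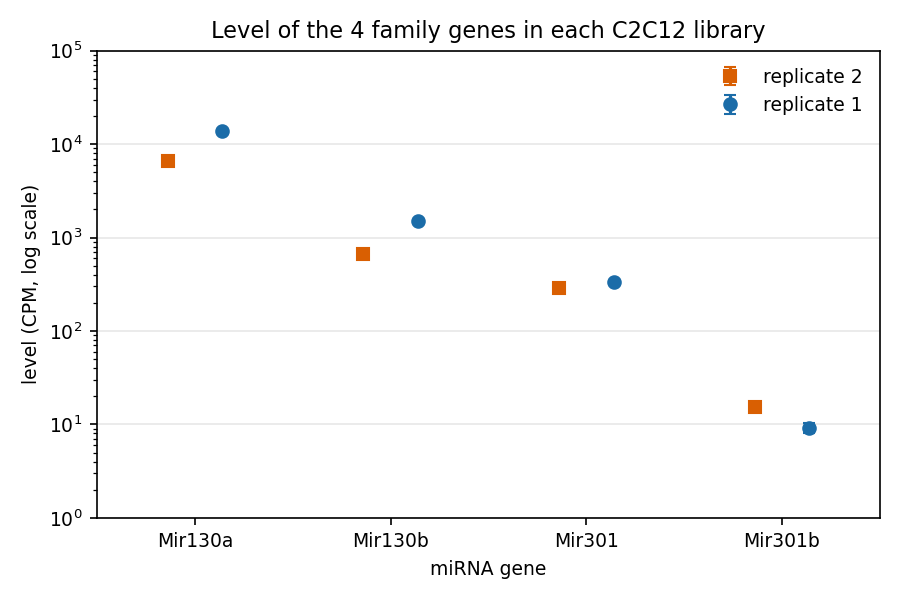
Level of each family gene (CPM, log axis) in replicate 2 (squares) and replicate 1 (circles), with exact 95% counting intervals that are mostly smaller than the markers. The order Mir130a, Mir130b, Mir301, Mir301b is the same in both libraries, from 6660 and 13933 CPM down to 15.4 and 9.25 CPM, and no gene's range over the libraries overlaps that of the next.

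The order of the members was the same in both libraries. The range of each gene over the libraries stayed apart from that of its neighbours in the order, the closest being Mir130b, at 673 CPM or more, and Mir301, at 332 CPM or less. The counts were not divided by length, since a small RNA read covers a whole mature miRNA. Levels of different miRNAs are read levels, not calibrated to molecules, and ratios between genes below are read ratios.

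The Mir130b and Mir301b cluster had fewer reads than Mir130a and more than Mir301. The sum of the cluster was 689 CPM in replicate 2 and 1508 CPM in replicate 1. Relative to Mir130a, the cluster had 0.103 reads per read in replicate 2 (exact interval 0.101 to 0.106) and 0.108 in replicate 1 (0.107 to 0.109), a mean of 0.106 ± 0.00342 (SD, n = 2). The ratio in replicate 2 was 0.955 times that in replicate 1 (95% counting interval 0.934 to 0.977), a small gap that still exceeded counting error. The CPM of the cluster and of Mir130a each differed by more than 2-fold. Other genes also had lower CPM in replicate 2: over the 210 genes averaging 10 CPM or more, the median log2 ratio of replicate 2 over replicate 1 by library totals was -0.83. Relative to Mir301, the cluster had 2.39 reads per read in replicate 2 (2.31 to 2.48) and 4.54 in replicate 1 (4.44 to 4.65), a mean of 3.47 ± 1.52 (SD, n = 2). This ratio in replicate 2 was 0.527 times that in replicate 1 (95% counting interval 0.505 to 0.549), a gap larger than counting error. No test across samples is given for these ratios, since an exact test over 2 libraries cannot pass the 0.05 threshold.

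The cluster itself was very unequal. Mir130b had 43.6 times the reads of Mir301b in replicate 2 (exact interval 38.3 to 49.9) and 162 times in replicate 1 (143 to 184). On the log2 scale the ratio of Mir130b to Mir301b was 5.44 in replicate 2 and 7.34 in replicate 1. For context, 63 other pairs of miRNA genes lay within 1000 bases of each other on the same strand with each gene at 1 CPM or more on average. Their median inequality, the absolute log2 ratio averaged over the libraries, was 2.19 (4.57-fold), and 11 of the 63 pairs were more unequal than Mir130b and Mir301b at 6.39. Leaving out pairs in which a gene has a near-identical copy, a choice made after seeing the data, 3 of 31 pairs were more unequal, and the median was 1.71 (3.28-fold). All 3 of these pairs contain the same gene, Mir19a, and so come from 1 locus. The pairs are not independent, since genes of larger clusters enter several of them. The change of this pair's log2 ratio between the libraries, 1.89, was exceeded by 2 of the 63 pairs, against a median change of 0.46.

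**Figure D2:**
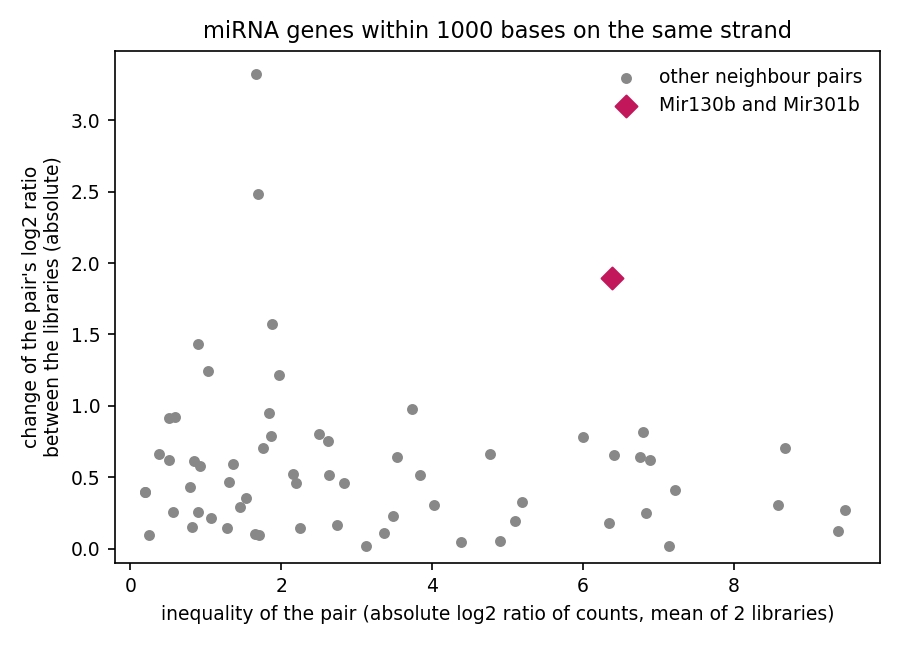
Each point is a pair of miRNA genes within 1000 bases on the same strand, with the pair's inequality (absolute log2 ratio of counts, mean of 2 libraries) on the x axis and the absolute change of its log2 ratio between the libraries on the y axis. Mir130b and Mir301b (diamond) lie at 6.39 and 1.89, where the median of the other 63 pairs is 2.19 and 0.46.

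The split of the family's reads differed between the libraries, and Mir301 and Mir301b each held a larger share in replicate 2. Mir130a and Mir130b together had 24.2 times the reads of Mir301 and Mir301b in replicate 2 (exact interval 23.5 to 24.9) and 45.2 times in replicate 1 (44.3 to 46.1). The 2 miR-130 genes, at different loci, stood at 9.89 reads of Mir130a per read of Mir130b in replicate 2 and 9.29 in replicate 1. The 2 miR-301 genes, also at different loci, stood at 18.7 reads of Mir301 per read of Mir301b in replicate 2 and 35.9 in replicate 1, a wider gap between the libraries. These ratios are taken within a library and do not depend on scaling.

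**Figure D3:**
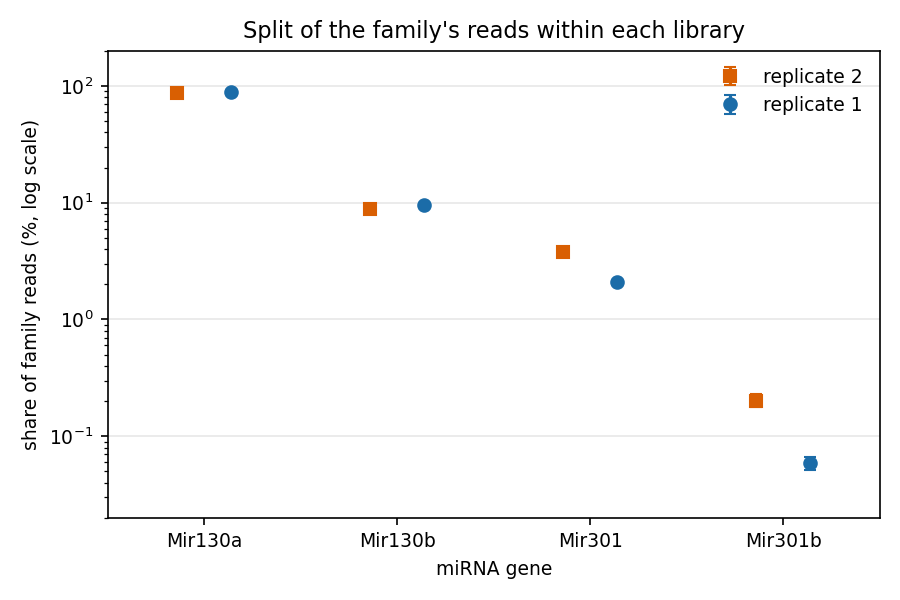
Share of the family's reads (%, log axis) on each gene in replicate 2 (squares) and replicate 1 (circles), with exact 95% counting intervals. Mir130a and Mir130b hold similar shares in both libraries, while Mir301 has 3.77% in replicate 2 against 2.11% in replicate 1 and Mir301b 0.202% against 0.0587%.

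The libraries were also compared over all 556 genes with at least 10 counts, after trimmed-mean (TMM) scaling in edgeR, with a two-sided exact binomial test and Benjamini-Hochberg adjustment. This test sets the difference between these libraries against counting noise, not against a condition. Over all tested genes 41.5% were called, 24.6% higher and 16.9% lower in replicate 2. By library totals 59.4% were called, 4.68% higher and 54.7% lower, since TMM adds 0.90 to every log2 ratio relative to totals. All 4 family genes were called. The 41.5% includes genes with as few as 10 counts, for which only large differences can be called. The family genes all average more than 10 CPM, so this share is not a matched background for them.

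Mir130a and Mir130b were slightly lower in replicate 2, with log2 ratios of replicate 2 over replicate 1 of -0.17 (counting SE 0.0051, exact binomial test, adjusted p = 1.03e-238) and -0.26 (counting SE 0.016, adjusted p = 2.48e-59, exact binomial test). By library totals the log2 ratios were -1.07 and -1.15. The TMM-scaled differences of both genes are smaller than the spread between these libraries, as the median absolute log2 ratio of the 210 genes that averaged 10 CPM or more was 0.33. Of the other 209 such genes, 150 differed by more than Mir130a and 122 by more than Mir130b.

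Mir301 and Mir301b were higher in replicate 2 after TMM scaling, although Mir301 was lower there by library totals. Mir301 had a log2 ratio of 0.69 (counting SE 0.027, adjusted p = 4.18e-139, exact binomial test), which 49 of the other 209 genes exceeded in absolute size. By library totals its log2 ratio was -0.21 (exact binomial test, adjusted p = 2.11e-14). Mir301b had a log2 ratio of 1.64 (counting SE 0.13, adjusted p = 5.79e-33, exact binomial test), or 3.11-fold, and 7 of the other 209 genes differed by more. By library totals Mir301b was still higher in replicate 2, at a log2 ratio of 0.74 (exact binomial test, adjusted p = 6.83e-08).

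**Figure D4:**
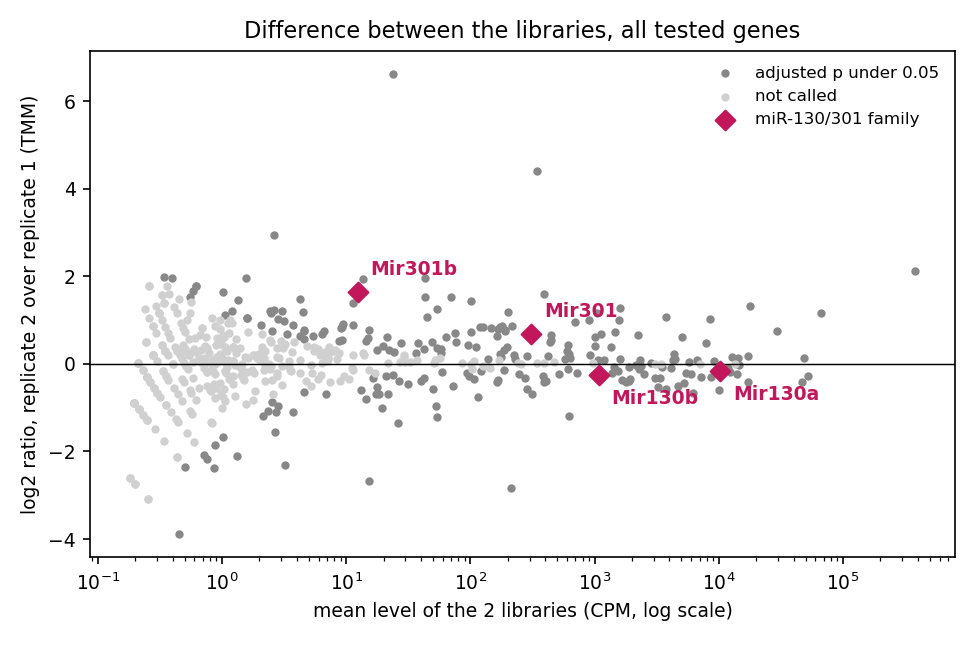
Log2 ratio of replicate 2 over replicate 1 after TMM scaling against the mean level (CPM, log axis) for the 556 tested genes, called genes in dark grey and others in light grey. Of the family (diamonds), Mir130a and Mir130b lie near the zero line at -0.17 and -0.26, Mir301 lies at 0.69 (-0.21 by library totals) and Mir301b at 1.64.

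Other genes with the same seed had no reads. Among 1738 mature miRNAs of the RefSeq table, 7 have the seed of miR-130a-3p. Of these, 3 are the 3p sequences of miR-130a, miR-130b and miR-301a shown above, miR-301b-3p not being used here, and the other 4 are miR-130c, miR-721, miR-6341 and miR-6389.
mmu-miR-130c: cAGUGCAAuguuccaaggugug
mmu-miR-721: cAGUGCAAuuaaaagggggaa
mmu-miR-6389: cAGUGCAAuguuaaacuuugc
Those of miR-130c, miR-721 and miR-6389 are shown for comparison with miR-130a-3p above. The genes Mir130c, Mir721, Mir6341 and Mir6389 had 0 reads in both libraries, which allows at most 0.2 CPM each in replicate 2 and 0.108 CPM in replicate 1, for counting error only.

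MiRNAs whose seed is offset from that of the family by a base or so were present at moderate to low levels. Mir19a and Mir148a serve as examples, with the run of letters shared with the family seed in capitals.
mmu-miR-19a-3p: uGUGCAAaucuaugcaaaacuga
mmu-miR-148a-3p: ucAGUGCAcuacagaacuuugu
The 6 genes of this kind (Mir19a, Mir19b-1, Mir19b-2, Mir148a, Mir148b and Mir152) summed to 535 CPM in replicate 2 and 530 CPM in replicate 1, below Mir130b alone in both libraries. Mir148b was the highest with 221 CPM in replicate 2 and 182 CPM in replicate 1. Mir19a, of the cluster that also holds the oncogenic Mir17, stood at 15.2 CPM in replicate 2, against 28.0 CPM in replicate 1. Mir19b-1 and Mir19b-2 each have a near-identical copy, which makes their levels uncertain. After TMM scaling 5 of the 6 were called higher in replicate 2 and none lower, beside 24.6% and 16.9% of all tested genes, whereas by library totals 2 of the 6, Mir148b and Mir19b-2, had the higher CPM in replicate 2. The exception was Mir19a, whose log2 ratio was 0.02 (exact binomial test, adjusted p = 0.963).

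No hairpin of the family shared a stretch of 20 bases with another miRNA gene of the tables. The longest stretches shared with genes outside the family were 17 bases for Mir130a, with Mir6389, 16 for Mir130b, with Mir6368, 13 for Mir301b and 11 for Mir301. Reads opposite to the family's strand numbered 0 in replicate 2 and 2 in replicate 1, both of these on Mir130a.

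Genes nearest to each member in level were found by Euclidean distance over log2 CPM in the 2 libraries, among the 320 detected genes. Those nearest to Mir130a were Mir378a, with 6522 CPM in replicate 2 and 11666 CPM in replicate 1, then Mirlet7b and Mir26b. Those nearest to Mir130b were Mir350, with 777 CPM in replicate 2 and 1363 CPM in replicate 1, then Mir181c and Mir361. Mir301 was nearest to Mir125b-2, at 215 CPM in replicate 2 and 353 CPM in replicate 1, followed by Mir421 and Mir25. Mir301b was nearest to Gm23873, at 13.2 CPM in replicate 2 and 9.47 CPM in replicate 1, followed by mmu-mir-3535 and Mir146. The levels of Mir378a, Mir125b-2, Gm23873 and Mir146 are uncertain, since each has a near-identical copy. With 2 libraries such nearness describes the level and little else.

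The hairpins differed in predicted folding. RNAfold gave a minimum free energy per base of -0.345 kcal/mol for Mir130a, -0.367 for Mir130b, -0.403 for Mir301b and -0.430 for Mir301, against a median of -0.433 over 266 detected genes with a RefSeq hairpin. Mir301 thus lay close to the median, while the other members were predicted to be less stable per base, Mir130a least of all. The annotated hairpin of Mir130a has 64 bases, against a median of 84 over the folded hairpins. The effect of hairpin length on these values, and any link to read levels, was not tested. The GC content ranged from 45.3% in Mir130a to 56.1% in Mir130b, around the median of 50.6%.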

How the data were processed

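Small RNA under 30 nucleotides from C2C12 cells was sequenced, per the labels, in 2 biological replicates. The deposited tables hold whole-number read counts per miRNA gene as the authors made them, on mm10 with GENCODE M21 per the deposited readme files. No source used here names the aligner or the counter. The gene-strand column was used. Rows that name no gene, 38.8% of reads in replicate 2 and 49.7% in replicate 1, stayed out of totals and tests. Reads with several places in the genome stand in a separate row, so genes with near-identical copies (a shared stretch of at least 20 bases) may be undercounted.

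CPM were computed per gene-strand total. Scaling was by TMM in edgeR 4.0.16 under R 4.3.3, from genes with at least 10 counts over both libraries. Each of these 556 genes got a two-sided exact binomial test (scipy 1.17.1) with Benjamini-Hochberg adjustment and a threshold of 0.05, and log2 ratios carry a prior count of 0.5. The test was tried on simulated counts with known changes. Those counts varied by counting error alone, so the trial does not cover other variation between libraries. The alternatives tried were size factors of DESeq2 1.42.0, totals of each library, totals without Mir21a or with multi-mapping reads added, count filters, counts of either strand, thinning and leaving out a library. Hairpins were folded with RNAfold 2.7.2. Intervals are at 95%, and a count of 0 allows up to 3 counts.

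The members and gene lists were chosen with earlier results of these data known. The named genes were the 4 members, genes with the same seed, the 6 offset-seed genes, the 3 genes nearest to each member, Mir21a and the cell type markers, of which the liver marker Mir122 summed to 1.26 CPM in replicate 2 and 3.90 CPM in replicate 1, and the epithelial marker Mir200c to 5.06 and 8.50 CPM.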

Additional observations from a re-analysis of the deposited data

Results flagged for a closer look

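Reads that mapped to several places were not used for the family's levels. They numbered 5599235 in replicate 2 (22.8% of its reads) and 18382947 in replicate 1 (33.4%). No control library was analysed here. How many of them came from the family is not known, since the row names no gene.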

How the results depend on the processing

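The number of genes called between the libraries (231) was 231 with DESeq2 size factors (124 higher and 107 lower in replicate 2) and 217 to 330 over the other alternatives. The split by direction changed with library totals, to 26 higher and 304 lower. Mir130a and Mir130b stayed lower and Mir301b stayed higher in replicate 2 under all 4 alternatives run for them, Mir130a and Mir130b by -1.07 and -1.15 with library totals. The log2 ratio of Mir301 turned to -0.21 with library totals, a setting that by construction takes 0.90 off every log2 ratio, and was 0.52 to 0.69 under the others. With Mir21a left out of the totals, the family's mean share was 1.85% (0.752% with multi-mapping reads added to the totals), and the mean levels were 16218 CPM for Mir130a, 1698 for Mir130b, 526 for Mir301 and 22.6 for Mir301b. Counted per base of the hairpin gene, the cluster had 0.0824 reads per read of Mir130a, and the order of the members did not change.

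Leaving out a replicate gave the value of the other library: a family share of 0.764% to 1.58%, a cluster to Mir301 ratio of 2.39 to 4.54, a cluster to Mir130a ratio of 0.103 to 0.108, and a Mir130b to Mir301b ratio of 43.6 to 162. The share, the Mir301 ratio and the Mir301b ratio so rest on which library is used. Among neighbour pairs, 17.5% were more unequal than Mir130b and Mir301b, 13.9% within 10000 bases and 9.68% without near-identical copies, both chosen after seeing the data. Mir301b, with 232 and 256 reads in replicates 2 and 1, is the member whose precision depth limits most. No paired analysis was possible because the series has 1 group.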
